A study of Drosophila melanogaster with 3 samples.

Results

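The genes described here encode subunits of the oxidative phosphorylation complexes of the fly. They were taken by symbol from the Ensembl annotation of the dm6 assembly: protein-coding nuclear genes whose symbol begins with ND-, Sdh, UQCR-, COX in upper case or ATPsyn. The rule found 88 of the 13945 protein-coding genes of the 6 main chromosome arms. Complex I had 40 of them, complex II 8, complex III 9, complex IV 16 and complex V 15. By its prefix the rule also took Sdhaf3, which encodes an assembly factor of complex II and not a subunit. It left out subunit genes with other symbols, such as blw, which are given at the end.

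The measurement was ChIP-seq of CG9727, a Drosophila protein known here by its code name, tagged with enhanced GFP at the C-terminus and precipitated through that tag. Whole embryos of both sexes, aged 0 to 24 h, came from 1 stably transgenic line, and the 3 biological replicates form 1 group. No second group or precipitate without the fusion was compared, and since the labels do not tell how the 3 collections relate, replicate error may be technical in part. Whole embryos mix all cell types, so fewer cells with the protein at a site and less of it in each cell cannot be told apart.

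Oxidative phosphorylation takes place in the inner mitochondrial membrane. Complexes I and II pass electrons from NADH and succinate to ubiquinone, complex III passes them on to cytochrome c, and complex IV reduces oxygen, while complex V, the ATP synthase, uses the proton gradient that complexes I, III and IV build up. Complex II is encoded wholly in the nucleus, whereas the other complexes also hold subunits encoded in mitochondrial DNA. Several subunits have an additional nuclear gene copy in Drosophila, named with a final L for "like", and many such copies are known for expression in the testis.

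A gene was called bound when the summit of a peak in the authors' thresholded list, made by irreproducible discovery rate (IDR) from the replicates, lay within 500 bp of any of its transcription start sites (TSSs). Offsets are taken from the start of the gene nearest to the summit and signed along the gene, so a negative offset is upstream of that start. The signal is the authors' value for a peak, and ranks count from 1 for the highest signal within a list. The IDR list held 7896 peaks, and each replicate was therefore represented by its own 7896 strongest peaks.

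Sequence around the summit of the bound gene with the highest signal in each complex shows what these sites look like. Each run holds the summit base of dm6 (RefSeq copy) with 50 bases on each side, read on the strand of the gene, with capitals for matches to the promoter words defined below. The sites are chrX:6679308-6679408 (minus strand, ND-ASHI), chr3R:11210033-11210133 (minus strand, SdhC), chr3R:11819433-11819533 (plus strand, COX5A) and chr3R:23356133-23356233 (minus strand, ATPsynCF6).
ND-ASHI: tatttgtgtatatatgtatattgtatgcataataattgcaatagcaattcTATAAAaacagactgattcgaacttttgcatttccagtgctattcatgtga
SdhC: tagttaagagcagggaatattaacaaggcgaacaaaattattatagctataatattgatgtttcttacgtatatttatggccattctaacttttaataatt
COX5A: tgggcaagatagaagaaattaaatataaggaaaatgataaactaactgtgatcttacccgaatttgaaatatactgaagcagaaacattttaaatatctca
ATPsynCF6: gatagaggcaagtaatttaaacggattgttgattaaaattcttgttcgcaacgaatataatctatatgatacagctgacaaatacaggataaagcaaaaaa
The windows of SdhC, COX5A and ATPsynCF6 held none of the words, and that of ND-ASHI held 1 TATA word. All 4 are rich in A and T. Across the 22 bound genes of the set the median share of G and C in such windows was 28.7% (range 13.9% to 57.4%), and across all 3770 bound protein-coding genes it was 33.7%. Complex III had 1 bound gene, UQCR-C2, whose window lies wholly in annotated 5′ untranslated sequence and is not shown.

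CG9727-eGFP was recovered at 22 of the 88 subunit genes (25%), against 27.0% of all protein-coding genes. By the strongest peaks of each replicate, 27 genes (30.7%) were bound in replicate 1, 24 (27.3%) in replicate 2 and 25 (28.4%) in replicate 3. The corresponding shares of all protein-coding genes were 27.8%, 26.4% and 27.0%. The replicate mean for the subunit genes was 28.8% ± 1.74 (SD, n = 3), and it exceeded that of the other protein-coding genes by 1.74 ± 1.04 percentage points (2.90, 0.889 and 1.44 in replicates 1, 2 and 3). The exact two-sided sign-flip permutation test over the 3 replicates gave p = 0.25, the smallest value that 3 replicates allow. Its size and sign moved with the setting: −0.427 points when each summit was given to the gene of its nearest TSS only, −0.130 with the 3948 strongest peaks, 0.661 with a window of 1 kb, 3.76 ± 1.20 with a window of 200 bp and 8.35 ± 6.20 with all peaks of each replicate list.

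In all 3 replicates 19 subunit genes (21.6%) were bound, against 21.3% of protein-coding genes. They comprised 18 of the 22 genes bound in the IDR list, and COX8. The other 4 of the 22, ATPsynC, UQCR-C2, COX7C and ND-30, were each bound in 2 replicates. Of the 66 genes without an IDR summit within 500 bp, 12 were bound in at least 1 replicate, and 54 of the 88 genes were bound in none of the 3. No share of all protein-coding genes stands beside these counts, so no difference from other genes is read from them.

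Complex IV had the highest share of bound genes and complexes II and III the lowest. In the IDR list, 10 of 40 genes of complex I (25%), 1 of 8 of complex II (12.5%), 1 of 9 of complex III (11.1%), 6 of 16 of complex IV (37.5%) and 4 of 15 of complex V (26.7%) were bound. The replicate means were 28.3% ± 3.82, 16.7% ± 7.22, 14.8% ± 6.42, 43.8% ± 6.25 and 28.9% ± 3.85 (SD, n = 3 each). All protein-coding genes had 27.0% in the IDR list and a replicate mean of 27.1%, which complexes I and V were near. With so few genes in complexes II and III, 1 gene moves the share by more than 10 points, and the differences between complexes were not tested.

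The complexes differ in how many gene copies they hold, and leaving the copies out widened the contrast. Copies are here the 24 genes whose symbol ends in L or in L and a digit, without ND-MNLL, whose last letter belongs to a subunit name. This definition was chosen after values were seen. Among the remaining 64 genes, 10 of 34 in complex I, 1 of 5 in complex II, 1 of 6 in complex III, 5 of 8 in complex IV and 4 of 11 in complex V were bound. The replicate means were 33.3% ± 4.49, 26.7% ± 11.5, 16.7% ± 16.7, 75% ± 12.5 and 39.4% ± 5.25. Complex IV was bound at 7, 6 and 5 of its 8 genes in replicates 1, 2 and 3, and in each replicate its share was the highest of the 5 complexes. By nearest TSS only, complex IV without copies had 2 bound genes of 8 (25%), against 23.5% of complex I and 27.3% of complex V. The share of all protein-coding genes was 20.4% by that rule. With the copies counted, complex IV had 3 bound genes of 16 by that rule (18.8%), fewer for its size than complexes I and V (20% each).

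**Figure D1:**
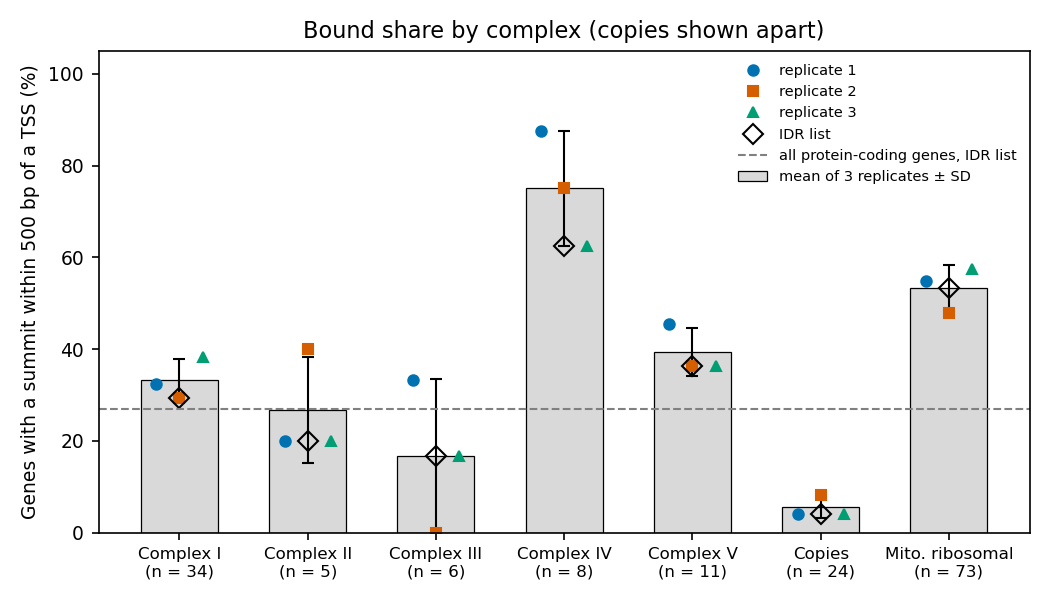
Percent of genes with a summit within 500 bp of a TSS for each complex without copies, for the 24 copies and for the 73 mitochondrial ribosomal protein genes. Bars are the mean of 3 replicates with SD, symbols are the replicates, diamonds the IDR list, and the dashed line all protein-coding genes in the IDR list (27.0%). Complex IV stands at 75% ± 12.5 and the copies at 5.56% ± 2.41.

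Complex I (NADH:ubiquinone oxidoreductase) held the 5 bound genes of highest signal by the summit nearest to a start. Replicate ranks are those of the summit within 100 bp of the IDR summit. ND-ASHI, an accessory subunit of the membrane arm, had the strongest site, ranked 380 of 7896 in the IDR list with a signal of 1155. Its matching summits had signals of 367, 300 and 494 in replicates 1, 2 and 3 and ranked 504, 340 and 323. All 3 replicates thus placed it among their highest peaks. The summit lay 240 bp upstream of the ND-ASHI start and in an intron of Fum1, a fumarase gene of the TCA cycle that is transcribed away from it, 282 bp from a Fum1 start.

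ND-MWFE, another accessory subunit, ranked 769 with a signal of 807 at an offset of −162 bp. Its replicate ranks were 1160, 619 and 698. This summit lay in an intron of TppII, a peptidase gene whose start, 59 bp away, was nearer than that of ND-MWFE. ND-24 and ND-51 encode core subunits of the NADH-oxidising module, ND-51 carrying the flavin. ND-24 ranked 1142 (signal 657) at +93 bp within its own intron, with replicate ranks of 1476, 847 and 1266. ND-51 ranked 1382 (signal 589) at −58 bp, with replicate ranks of 1335, 1343 and 1515, a close agreement between replicates. ND-SGDH, an accessory subunit of the membrane arm, ranked 1672 at −91 bp, with replicate ranks of 1735, 1563 and 1661.

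The nearest summits of the remaining 5 bound genes of complex I were weaker. ND-MNLL ranked 2290 at −93 bp, a summit equally near to a start of CG45089. ND-42 had its nearest summit at +8 bp with rank 4278, and another IDR summit at −197 bp was stronger than those of ND-51 and ND-SGDH, with rank 1240 and a signal of 626. ND-23, an iron-sulphur core subunit, ranked 4759 at −111 bp, with 5046, 4601 and 4644 in the replicates. ND-B18 ranked 5865 at −25 bp. ND-30, a core subunit of the peripheral arm, ranked 7559 with a signal of 165, close to the end of the list; its summit had no counterpart within 100 bp in replicate 2 and was nearer to CG15812.

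Complex I holds 7 nuclear-encoded core subunits that are shared with bacteria and do the catalytic work, and a larger number of accessory subunits. Of the core genes ND-75, ND-51, ND-24, ND-49, ND-30, ND-23 and ND-20, 4 were bound in the IDR list, with a replicate mean of 52.4% ± 8.25. Of the 27 accessory genes without copies, 6 were bound, with a mean of 28.4% ± 4.28. The mean of all protein-coding genes was 27.1%, close to that of the accessory genes. By nearest TSS only, 3 core genes (42.9%, without ND-30) and 5 accessory genes (18.5%) were bound, against 20.4% of protein-coding genes. This split was added after the values were seen and was not tested.

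In complex II (succinate dehydrogenase) SdhC, a membrane anchor subunit, was the bound gene. It ranked 2991 at −234 bp, with replicate ranks of 2389, 4468 and 3155, and the summit lay nearer to Tctp, which is transcribed in the opposite direction. SdhA, the flavoprotein, had its nearest IDR summit at −875 bp. SdhB, the iron-sulphur subunit, and SdhD, the other anchor, had theirs 2230 and 2445 bp away, so that, copies aside, 3 of the 4 subunit genes of the complex were not called.

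In complex III (cytochrome bc1) UQCR-C2, a core protein on the matrix side, was the bound gene, with rank 6340, a signal of 192 and an offset of −69 bp. Its replicate ranks of 5762, 12952 and 7257 put it outside the 7896 strongest peaks of replicate 2. UQCR-14 had an IDR summit at −925 bp, beyond the window, and UQCR-C1, the partner core protein, had its nearest 3861 bp upstream.

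Complex IV (cytochrome c oxidase) has 8 genes here that are not copies, and COX5A, COX7B, COX6B, COX5B and COX7C were bound. Their products are nuclear-encoded subunits that surround a catalytic core made in the mitochondrion. COX5A ranked 2175 (signal 438) at −116 bp, with signals of 137, 110 and 195 in replicates 1, 2 and 3. COX7B ranked 2972 at −180 bp and COX6B 3696 at −3 bp, on the start itself. COX5B ranked 4931 at −133 bp, and its rank of 7694 in replicate 2 was close to the end of the strongest 7896. COX7C ranked 7180 at +210 bp in the 5′ untranslated region of the overlapping gene oys, and its ranks of 7598, 6759 and 8993 straddled that limit.

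The COX6B site differs in composition from those of highest signal printed above and is shown for that reason, having been chosen after its values were seen. The run is the upstream part of its summit window, chrX:19744336-19744388 on the minus strand of dm6, ending at the base before the start.
COX6B: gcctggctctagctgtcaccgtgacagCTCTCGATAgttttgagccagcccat
The capitals mark a GAGAG word on the opposite strand that overlaps a CGATA word.

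COX8, the gene of another small subunit of complex IV, was bound in all 3 replicates without a peak in the joint lists. Its nearest summits ranked 2431, 2488 and 1694, with signals of 151, 96.7 and 204, at offsets of −86, −311 and −84 bp. Replicates 1 and 3 each held an additional summit at −286 and −327 bp, near that of replicate 2. The pooled relaxed list, made by the authors from all 3 alignments, held no summit within 500 bp, and the nearest IDR summit was 23124 bp away. Among all protein-coding genes 17 were bound in all 3 replicates without an IDR summit, and 8 of these had no pooled summit either. The 4 relaxed lists hold 30000 peaks each, and whether the making of the pooled list bears on its lack of a COX8 summit was not tested. With COX8, 6 of the 8 genes of complex IV that are not copies had strong peaks in all 3 replicates or in the IDR list.

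Complex V (ATP synthase) had 4 bound genes with different roles. ATPsynCF6, coupling factor 6 of the peripheral stalk, ranked 2232 (signal 430) at −119 bp, with replicate ranks of 2719, 1910 and 2308. ATPsynE, a membrane subunit, ranked 2309 at −22 bp, with ranks of 2021, 2585 and 3085. Both were among the stronger sites of the set in every replicate. ATPsynC, the proton-carrying ring subunit, ranked 4434 at +67 bp with no summit within 100 bp of that summit in replicate 2. The nearest replicate 2 summit to a start lay at −35 bp, with rank 9614. ATPsyngamma, the central shaft, ranked 5650 at −22 bp and had no summit within 100 bp of its IDR summit in replicate 1. It was bound there by other summits, the nearest at −90 bp with rank 7121. ATPsynbeta, the catalytic subunit, lies on chromosome 4 and had its nearest IDR summit 4156 bp upstream.

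**Figure D2:**
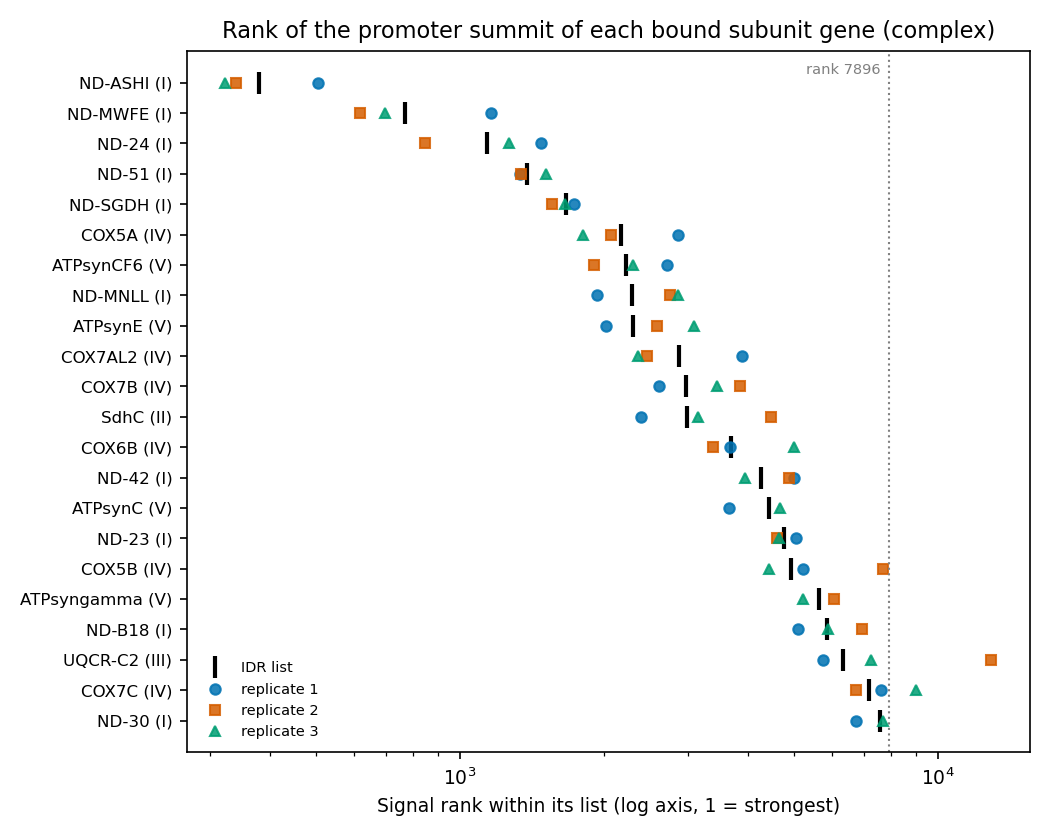
Rank of the promoter summit by signal (log axis, 1 is the strongest) for each of the 22 bound genes, with the complex in brackets. Vertical bars are the IDR list, symbols the summits matched within 100 bp in the complete list of each replicate, and the dotted line marks rank 7896. Ranks run from 380 for ND-ASHI to 7559 for ND-30, and UQCR-C2 lies at 12952 in replicate 2.

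The bound genes of the set were neither unusually strong nor unusually placed within the list. Their median rank was 2982 (range 380 to 7559) and their median signal 347, against 3580 and 304 for all bound protein-coding genes. The median offset was −80 bp (range −240 to 472) against −121 bp. Summits lay upstream of the nearest start of the gene in 17 of 22 genes (77.3%, against 83.6%) and within 100 bp of it in 11 of 22 (50%, against 37.7%). Among the 17, those of COX5A, UQCR-C2, ND-B18 and ATPsyngamma lay inside the gene, downstream of an earlier start. In the annotation 11 of the 22 summits fell between genes, 6 in the 5′ untranslated sequence of the bound gene, 2 in its introns, 2 in introns of a neighbour and 1 in the 5′ untranslated sequence of a neighbour. The window edge matters for few genes. Inside it the outermost were ND-ASHI at 240 bp and COX7AL2 at 472 bp, and outside it the nearest were UQCR-6.4L at 508 bp, SdhA at 875 bp and UQCR-14 at 925 bp.

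Fewer of the copies than of the other subunit genes were bound. Of the 21 genes whose symbol ends in L, 1 was bound in the IDR list, and that gene was ND-MNLL. None of the other 20 was bound, and 0, 1 and 0 of them were bound in replicates 1, 2 and 3. In the replicates the 21 genes gave 1, 2 and 1 bound, a mean of 6.35% ± 2.75, and the 67 other genes gave 26, 22 and 24, a mean of 35.8% ± 2.99 (SD, n = 3). The difference of 29.5 ± 5.54 percentage points had the same direction in all 3 replicates (34.0, 23.3 and 31.1), with p = 0.25 by the exact two-sided sign-flip permutation test, the smallest value possible.

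With the wider definition of copies, 1 of 24 was bound, COX7AL2, and the replicate mean was 5.56% ± 2.41. The difference from protein-coding genes outside the set was −21.5 ± 3.01 points (−23.6, −18.1 and −22.8; exact sign-flip permutation p = 0.25). The 64 genes that are not copies gave 26, 22 and 24 bound (37.5% ± 3.12), a mean 10.5 ± 2.43 points above protein-coding genes outside the set (12.8, 7.99 and 10.5; exact sign-flip permutation p = 0.25). By the strongest peaks, the share for the whole set thus averages a group above the other protein-coding genes and a group below them in each of the 3 replicates. The excess of the genes that are not copies was smaller by other counts: 32.8% of them were bound in the IDR list, against 27.0% of other protein-coding genes, and 21.9% by nearest TSS only, against 20.5%. Among genes with 1 TSS the IDR shares were 21.9% of them and 21.0% of all protein-coding genes. With several TSSs both shares were 43.8%.

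Of the 24 copies, 20 have a counterpart within the set, a gene with the same symbol without the final L or digit. In 7 of these 20 pairs the counterpart was bound and the copy was not, in 1 pair the copy was bound and the counterpart was not, and in 12 neither was bound. The bound counterparts were ND-24, ND-51 (with 2 copies), SdhC, COX5B, COX7C and ATPsynCF6. ND-51 had its summit at 58 bp and its copies ND-51L1 and ND-51L2 at 2592 and 7164 bp. ND-24 had its summit at 93 bp and ND-24L at 10109 bp. SdhC had its summit at 234 bp and SdhCL at 38380 bp. ATPsynCF6 and ATPsynCF6L had theirs at 119 and 5564 bp. The copy was farther from an IDR summit than its counterpart in 16 of the 20 pairs.

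COX5B and COX5BL lie next to each other on 2L in the same orientation, and the nearest IDR summit to COX5BL, 1764 bp upstream of it, is the COX5B summit. The COX5B pair is printed because copy and counterpart sit within 2 kb and share a summit as their nearest. Each run covers 100 bases before to 20 after the start on the plus strand of dm6, chr2L:6557700-6557820 for COX5B and chr2L:6559331-6559451 for COX5BL.
COX5B: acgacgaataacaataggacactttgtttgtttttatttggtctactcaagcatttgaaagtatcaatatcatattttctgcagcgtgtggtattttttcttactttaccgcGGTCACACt
COX5BL: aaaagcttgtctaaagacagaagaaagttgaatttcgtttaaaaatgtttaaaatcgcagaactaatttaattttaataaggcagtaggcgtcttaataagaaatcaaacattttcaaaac
The capitals mark Motif 1, which COX5B carries just after its start and which this stretch of COX5BL lacks.

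The exception among the pairs was COX7AL2, ranked 2874 (signal 357) at +472 bp, in its own 5′ untranslated sequence. It was bound in all 3 replicates, by summits at +480, +493 and +358 bp that ranked 3893, 2462 and 4917. In replicate 3 the summit matched to the IDR summit was another, 87 bp from it and outside the 500 bp window, with rank 2357. Its counterpart COX7A had its nearest IDR summit at 4519 bp and was bound by the strongest peaks in replicate 1. COX7C and COX7CL are neighbours in the same orientation, as the COX5B pair is, with the COX7C summit 1785 bp upstream of COX7CL.

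**Figure D3:**
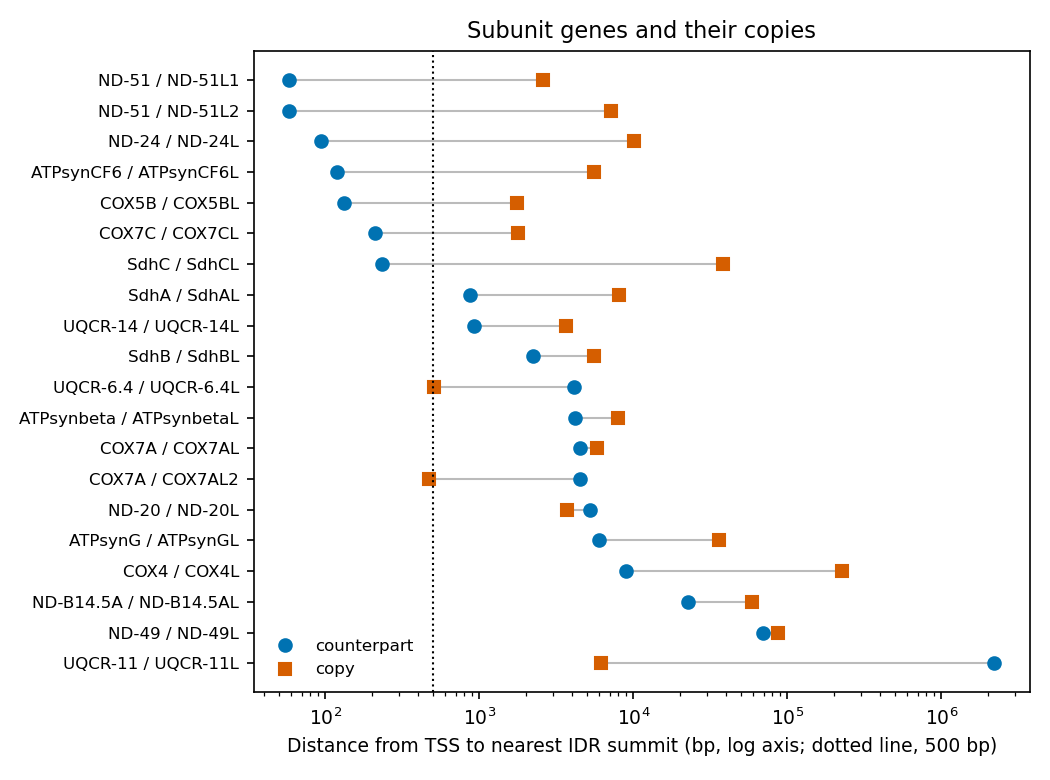
Distance from the nearest TSS to the nearest IDR summit (bp, log axis) for the 20 copies (squares) and their counterparts (circles), one pair a line; the dotted line marks 500 bp. COX7AL2 at 472 bp is the copy inside the window, and 7 pairs have the counterpart inside it.

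Most of the uncalled genes that are not copies had a summit of the pooled relaxed list within 500 bp of a start. The pooled relaxed list holds 30000 entries, labelled by the authors as peaks and background for IDR, and most are not in the IDR list. A summit in it is therefore not by itself a called site. Of all protein-coding genes, 50.1% had one of its summits within 500 bp. Of the subunit genes 52 of 88 (59.1%) had one, made up of 49 of the 64 that are not copies (76.6%) and 3 of the 24 copies (12.5%). Within 100 bp of a start the shares were 53.1%, 8.33% and 25.1% for genes that are not copies, copies and all protein-coding genes. The median distance to a pooled summit was 93.5, 2000 and 496 bp in the same order.

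Among the 43 uncalled genes that are not copies, 28 (65.1%) had a pooled summit within 500 bp, against 31.6% of all uncalled protein-coding genes. A pooled summit lay within 100 bp of a start in 19 of the 43. In 13 of the 43 a summit lay within 500 bp in each of the 3 complete replicate lists (30.2%, against 17.0% of all uncalled protein-coding genes). UQCR-C1 is an example, with summits at −15, 14 and −33 bp ranked 8561, 9786 and 8537, just below the 7896 strongest of each replicate. ATPsynG had summits at −18, −18 and −31 bp, ranked 16836, 5075 and 9479. ND-39, another accessory subunit, had a pooled summit on its start (0 bp) at rank 13736. At the other end, ND-49, ND-B12, ND-B14, ND-B14.5B, ND-B14.7, ND-B16.6 and ND-MLRQ had no summit within 500 bp in any list. Of the 23 unbound copies, 16 had none in any list (69.6%), against 52.1% of unbound protein-coding genes and 16.3% of unbound subunit genes that are not copies.

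**Figure D4:**
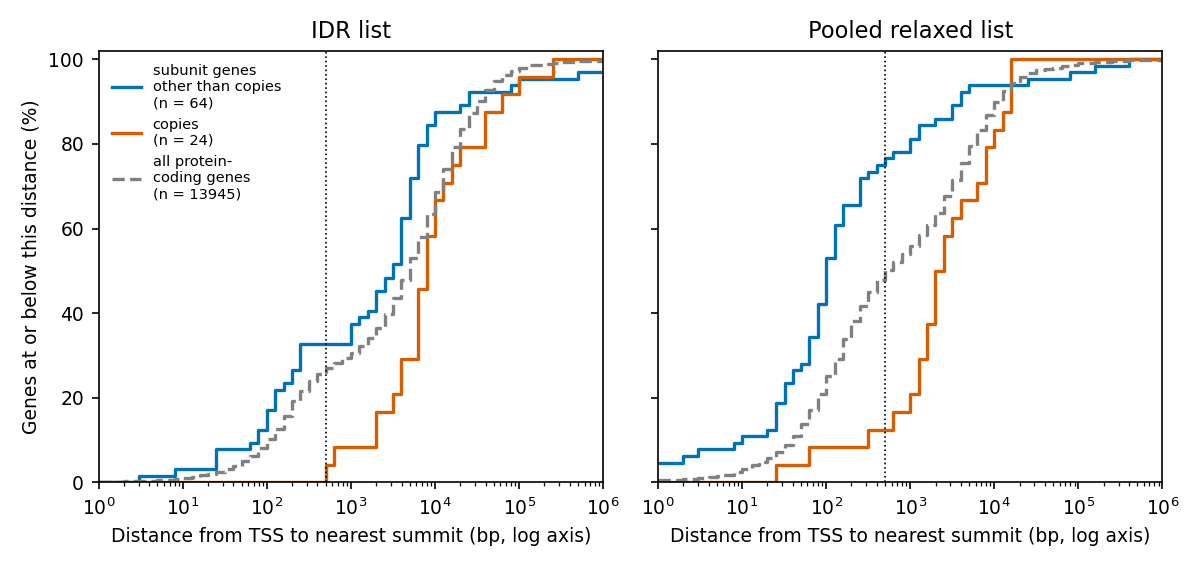
Cumulative percent of genes by distance from TSS to the nearest summit (bp, log axis), in the IDR list (left) and the pooled relaxed list (right), for 64 subunit genes that are not copies, 24 copies and 13945 protein-coding genes; the dotted line marks 500 bp. At that line the pooled list reaches 76.6%, 12.5% and 50.1%.

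Bound subunit genes were mostly those that face another gene. A gene was called head to head when another protein-coding gene started within 1 kb upstream on the opposite strand. This held for 19 of the 22 bound subunit genes (86.4%), against 64.2% of bound protein-coding genes. It held for 25 of the 66 unbound subunit genes (37.9%), against 25.9% of unbound protein-coding genes. The bound genes without a partner were ATPsynC, UQCR-C2 and COX7AL2. Among genes that are not copies, 19 of 40 with a partner were bound (47.5%) and 2 of 24 without (8.33%). The same shares over all protein-coding genes were 47.9% and 15.2%, so a partner went with binding in the set as it did in general.

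The copies seldom faced another gene: 4 of 24 did (16.7%), against 40 of 64 of the others (62.5%) and 36.2% of protein-coding genes. None of those 4 was bound, and 1 of the 20 copies without a partner was. The part that this arrangement has in the difference between copies and other genes was not tested.

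Between facing genes a summit can belong to either. At 15 of the 22 bound genes the start of the gene itself was the nearest of all annotated starts, ties included, and at 7 the start of another gene was nearer. These were ND-MWFE (TppII), COX5A (glo, an RNA-binding protein), ATPsynCF6 (Sec13, a coat protein), COX7B (Sec3, an exocyst subunit), SdhC (Tctp), COX7C (oys) and ND-30 (CG15812). Counting each summit for its nearest start only, 15 of 88 subunit genes (17.0%) were bound, against 20.4% of protein-coding genes.

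Genes with several starts offer more room for a summit. Among subunit genes with 1 TSS, 7 of 53 were bound (13.2%, against 21.0% of such protein-coding genes), and among those with more, 15 of 35 (42.9%, against 43.8%). The 21 copies with 1 TSS held 0 bound genes, and of the other subunit genes with 1 TSS 7 of 32 were bound (21.9%). Of those with several starts 14 of 32 were bound (43.8%), the same share as of such protein-coding genes. The mean number of starts per gene was 1.56 in subunit genes that are not copies and 1.17 in copies. It was 1.45 in the whole set and 1.41 in all protein-coding genes. The part that the number of starts has in the difference between copies and other genes was not tested.

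**Figure D5:**
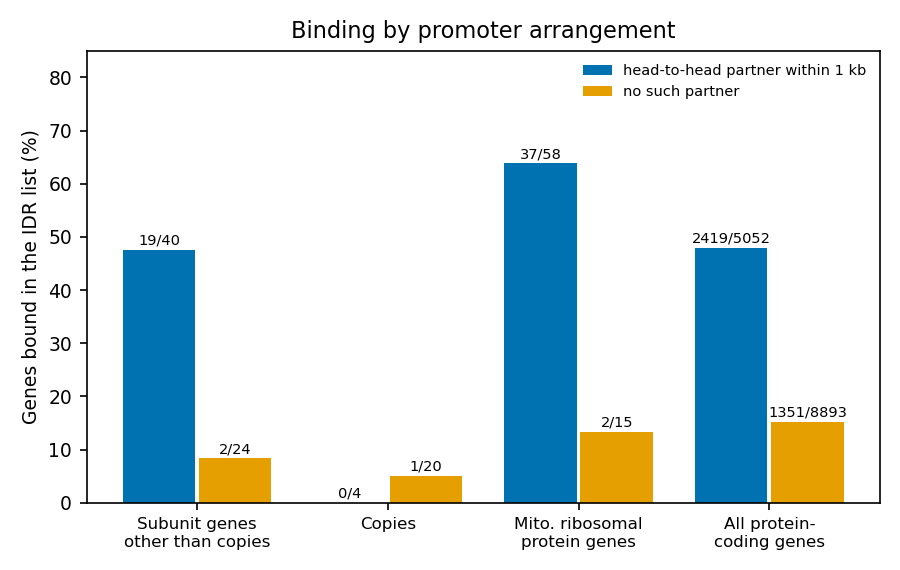
Percent of genes bound in the IDR list among those with (blue) and without (orange) a head-to-head partner within 1 kb, for subunit genes that are not copies, copies, mitochondrial ribosomal protein genes and all protein-coding genes, with counts above the bars. With a partner the shares are 47.5%, 0%, 63.8% and 47.9%.

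Promoter words were counted from 250 bases before to 50 after the start, on both strands. They were the DRE (TATCGATA), known as the site of the factor Dref, Motif 1 (GGTCACAC), a core promoter word of housekeeping genes, CGATA, the core word of BEAF-32 sites, which is contained in the DRE, CACGTG, an E-box, GAGAG, known from sites of the factor Trl, and TATAAA, the TATA box. Motif 1 was found in 16 of the 88 promoters (18.2%), in 23.4% of those of genes that are not copies and in 4.17% of those of copies, against 7.70% of all protein-coding promoters and 12.2% of bound ones. The DRE was in 14.1% of promoters that are not of copies, in 0% of those of copies and in 9.36% of all. CGATA was in 56.2%, 41.7% and 47.4% in that order. TATAAA was in 62.5%, 37.5% and 45.8%. GAGAG had the opposite order, with 15.6%, 41.7% and 29.7%, and CACGTG was rare in each, with 3.12%, 8.33% and 4.20%.

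At the summits themselves the words were counted in the set and at all bound genes, with no test of a difference. Within 50 bases of the summit, CGATA was in 6 of the 22 windows (27.3%, against 23.1% of all bound protein-coding genes), TATAAA in 4 (18.2%, against 22.3%), GAGAG and Motif 1 in 1 each (4.55%, against 8.97% and 2.73%) and the DRE in 0 (against 4.32%). A match is a match of letters and does not show that a factor binds there.

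Other genes of the pathway gave a frame for these shares, and their lists are described by counts. The share of all protein-coding genes in the IDR list, 27.0%, stands beside each. Of the 10 oxidative phosphorylation genes with other symbols, 6 were bound in the IDR list (60%), with a replicate mean of 56.7% ± 5.77. They were blw, the ATP synthase alpha subunit (rank 964), ox of complex III (6058), levy and cype of complex IV (4641 and 7089) and the cytochrome c genes Cyt-c-p (4429) and Cyt-c-d (444). The unbound ones were Cyt-c1, its copy Cyt-c1L, RFeSP, the Rieske protein of complex III, and sun, the ATP synthase epsilon subunit. The summits counted for Cyt-c-d, at +379 bp, and ox, at −107 bp, were nearer to CG31808 and Dgkepsilon.

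Of 16 TCA cycle genes, 6 were bound (37.5%, replicate mean 39.6% ± 3.61): kdn, the citrate synthase, mAcon1, an aconitase, Idh3a and Idh3g of isocitrate dehydrogenase, Ogdh and Fum1. Idh3g had the strongest of these sites, with rank 166, Fum1 shares the summit of ND-ASHI, and that of Idh3a was nearer to CoRest. Of 15 genes of mitochondrial biogenesis and mitochondrial DNA expression, 5 were bound (33.3%, replicate mean 33.3% ± 6.67), near the 27.0% of protein-coding genes. They were srl, the fly PGC-1 homologue, PolrMT, the mitochondrial RNA polymerase, PolG2, mtSSB and mTerf5. The summit of PolG2 was equally near to GatC. By the strongest peaks PolG2 was bound in 1 replicate, srl in 2 and the others in all 3.

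The 73 mitochondrial ribosomal protein genes, which make the machine that translates the mitochondrial subunits of the same complexes, were bound more often than the subunit genes. In the IDR list 39 of 73 were bound (53.4%), with 54.8%, 47.9% and 57.5% in the replicates (53.4% ± 4.94). Their mean exceeded that of the 88 subunit genes by 24.6 ± 4.25 points, and that of the 64 that are not copies by 15.9 ± 3.57 points. The exact sign-flip permutation test gave p = 0.25 for each, the smallest possible with 3 replicates. More of the ribosomal protein genes were head to head (79.5%, against 62.5% of the 64), and with a partner 63.8% of them were bound, against 47.5%. By nearest start only, 17 of 73 were bound (23.3%), which is close to the 21.9% of the 64 subunit genes.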

How the data were processed

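The deposited files are peak lists of 3 replicates. The authors called a relaxed list per replicate against 1 control, another on the pooled replicates, and derived the IDR list from these 4, per the deposited file descriptions. The aligner, the caller and their settings were not given in the sources used here. The dm6 lists were used. The signal of each peak is the authors' deposited value and served to rank peaks within a list, and the other deposited columns used were coordinates and summit positions. These lists hold no read counts, so depth is unknown from them.

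Genes and TSSs came from Ensembl release 115 (18164 genes, 23998 TSSs on the 6 arms) and sequence from RefSeq on the same assembly; all 88 genes had the same position in both. Positions count from 1. Python 3.11.15, numpy 2.4.6, pandas 2.3.3 and scipy 1.17.1 were used, and the assignment of summits to genes was checked on simulated summits. Shares over replicates were compared by exact sign-flip permutation tests; genes are not replicates, so all else is description.

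The members, lists and alternatives were chosen with earlier results of these data known. The text names every bound gene, the 3 nearest outside the window, copies that are bound or whose counterpart is, genes bound in all 3 replicates without an IDR summit, and bound genes of the pathway lists; other named genes were chosen after their values were seen. The pathway lists were matched by symbol, with kdnL unmatched and Nc73EF the same gene as Ogdh. A nuclear respiratory gene element that had been planned among the promoter words was dropped after its matches had been counted, because no source used here gives its letters. Sequences with more than 30 annotated untranslated bases were shortened or left out. Alternatives changed the window, the assignment, the number of peaks, the replicates and the definition of copies.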

Additional observations from a re-analysis of the deposited data

How the results depend on the processing

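Of 98 values recomputed under alternatives, 2 reversed, 22 moved past the replicate spread or by over 1.5 times, and 74 did neither or, for differences, kept their direction. The reversed ones were the difference between subunit genes and other protein-coding genes, −0.427 points by nearest TSS only and −0.130 with the 3948 strongest peaks; it rose to 8.35 with all peaks of each replicate list. With the 3948 strongest peaks, 14 of the 88 genes were bound (15.9%, against 16.6% of all protein-coding genes). At that setting 13 of the 67 whose symbol does not end in L (19.4%), 0 of complex III and 2 of complex V were bound. A window of 200 bp left 0 bound in complex II, with a median offset of −69 bp, and 1 kb gave 2 in complex II, 3 in complex III and 2 among symbols ending in L, with a median rank of 3987 and offset of −102 bp. By nearest TSS only, complex II had 0 and complex IV 3, with a median rank of 3696 and offset of −25 bp. Bound copies were 0 with ND-MNLL counted among the other genes, and 2 with symbols ending in L and a digit added. Windows, assignment and peak number keep fewer or more summits by construction, and the definitions of copies regroup genes over the same summits.

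Without 1 replicate, keeping IDR peaks with a summit within 100 bp among the strongest peaks of both others, 18 to 20 genes stayed bound. These were 20.5%, 22.7% and 20.5% of the 88 without replicates 1, 2 and 3, against 21.3%, 22.2% and 20.7% of protein-coding genes. Complex I had 9 to 10, complex II 1 to 1, complex III 0 to 1 (0 without replicate 1 or 3), complex IV 5 to 6 and complex V 2 to 3 (2 without replicate 3). Symbols ending in L had 1 and the others 17 to 19. The difference from other protein-coding genes was 1.16 to 2.17 points, and that from copies 27.2 to 32.6. No paired analysis was possible because there is 1 group. Depth is unknown, so an uncalled start may hold less signal than the lists can show, and the share of any complex rests on few genes.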

Other observations

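By arm, the bound genes were 3 of 16 on 2L, 2 of 17 on 2R, 4 of 20 on 3L, 8 of 20 on 3R, 0 of 2 on chromosome 4 and 5 of 13 on X. The shares of all protein-coding genes bound were 25.6%, 25.4%, 27.8%, 28.9%, 6.25% and 27.8% in the same order. Chromosome 4, largely heterochromatic, carries ATPsynbeta and ND-49.

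No IDR summit lay within 100 kb of 4 of the 88 genes (4.55%, against 2.01% of all protein-coding genes). These were ND-MLRQ, ND-AGGG and UQCR-11 on 3L, and COX4L on 2R, and they were singled out after their values were seen. The same IDR summit, at position 22910139 of 3L (dm6), was the nearest for the 3 genes on that arm, which start at 23339326, 24976254 and 25120709.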
